A study of Mus musculus with 9 samples.

Results

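The genes described here encode the proteins of the mitochondrial ribosome, chosen as every mouse symbol of the form Mrpl or Mrps followed by a number, without pseudogenes, that had a mean of at least 10 normalized counts over all libraries. Of 78 symbols of that form, 77 passed, among 12100 genes that passed in the whole series. By symbol, 48 belonged to the large subunit (Mrpl) and 29 to the small subunit (Mrps). Mrpl23 stayed below the limit with a mean of 5.87, and the member nearest above it was Mrps36 with 10.6.

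Liver RNA was sequenced from 4-week-old Tet-OFF mice in 3 groups, with 3 libraries per group. The study describes the mice as male. Control mice received tamoxifen alone, Dox mice received tamoxifen and doxycycline, and Tc mice received tamoxifen and tetracycline. Each drug was given at 2 mg/mL for 7 days in drinking water that contained 10 mg/mL sucrose. Tet-OFF mice carry a PB CAG-CreERT2 allele, a Rosa26 LSL-tTA allele and a Rosa26 tetO-Venus-ires-mCherry allele, so that tamoxifen lets tTA switch the fluorescent transgene on and either drug switches it off. An effect of a drug and an effect of silencing the transgene therefore cannot be told apart in these groups. Whether the control mice drank sucrose water was not given in the sources used here.

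The mitochondrial ribosome translates the few proteins that the mitochondrial genome encodes, all of them subunits of the respiratory chain and ATP synthase. It descends from a bacterial ribosome, kept part of the bacterial protein set, and gained proteins that bacteria lack. All of its proteins are encoded in the nucleus, made in the cytosol and imported. Tetracyclines bind the small subunit of bacterial ribosomes and can also slow translation in mitochondria, and the study named an effect of Dox on mitochondria as a reason to compare the drugs. These libraries hold RNA levels only and say nothing of translation or of protein.

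Libraries held from 7426136 to 12183041 reads on genes, and the 77 members together took from 0.135% to 0.171% of them. Library 3 of each group was fitted as libraries 1 and 2 added with weights. These were 52.9% and 46.4% for Control, 60.6% and 34.8% for Dox, and 57.7% and 40.5% for Tc. How closely the sum matched was not measured. Among genes over 2-fold apart between libraries 1 and 2, library 3 lay between them for 459 of 519 in Control. With Dox this held for 3996 of 4086, and with Tc for 882 of 921. If library 3 is not a separate sample, adjusted p-values from all 9 libraries, which treat it as one, are too small. Among the members, the third library lay between the other two for 62 of 77 genes with Dox, 28 with Tc and 21 in Control. Dox library 2 had the lowest depth and stood apart from the others. The hepatocyte markers were present in every library, with summed levels from 1098410 to 1561740 normalized counts in Control, from 495653 to 813344 with Dox and from 798713 to 1255120 with Tc (7 of 7 genes). The 5 Kupffer cell markers summed to 5695 to 9403 in Control, 1571 to 3770 with Dox and 2678 to 5476 with Tc, and the 5 markers of sinusoidal endothelium to 4077 to 4220, 2005 to 2467 and 3107 to 3570. The sum of the 4 bile duct markers was higher with Dox, at 39 to 52, 87 to 104 and 46 to 65. That of the 4 proliferation markers was lower, at 139 to 244, 54 to 63 and 150 to 383. As few as 1 of the 4 genes reached 10 normalized counts, for bile duct in Control and for proliferation with Dox. Both sums thus rest on low values. Lymphocyte markers summed to 33 to 50, 18 to 19 and 15 to 28, and those of stellate cells, neutrophils and erythroid cells overlapped between all groups. The part of these differences in the results below was not tested. In bulk liver, fewer cells of a type and less RNA per cell cannot be told apart.

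Promoters are shown for 4 members, the highest and the lowest of each subunit by fitted change with Dox, so that the sequences before and after the start of the genes described below can be read. They come from RefSeq (GRCm38.p6), which matched 68 of the 77 members by symbol, and span 250 bases before to 50 bases after the start. The large subunit gives Mrpl47 (minus strand, chr3:32736706-32737005) and Mrpl27 (plus strand, chr11:94653541-94653840). The small subunit gives Mrps18b (minus strand, chr17:35916391-35916690) and Mrps18a (plus strand, chr17:46110754-46111053). Each is printed 5′ to 3′ along the gene, with capitals for exact matches to the motifs described after them.
Mrpl47: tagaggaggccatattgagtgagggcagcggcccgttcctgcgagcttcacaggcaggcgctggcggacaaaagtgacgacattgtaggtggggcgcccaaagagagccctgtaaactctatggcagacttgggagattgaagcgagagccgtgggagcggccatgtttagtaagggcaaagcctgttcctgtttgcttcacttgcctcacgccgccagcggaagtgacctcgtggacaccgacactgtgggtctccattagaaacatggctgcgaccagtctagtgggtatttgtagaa
Mrpl27: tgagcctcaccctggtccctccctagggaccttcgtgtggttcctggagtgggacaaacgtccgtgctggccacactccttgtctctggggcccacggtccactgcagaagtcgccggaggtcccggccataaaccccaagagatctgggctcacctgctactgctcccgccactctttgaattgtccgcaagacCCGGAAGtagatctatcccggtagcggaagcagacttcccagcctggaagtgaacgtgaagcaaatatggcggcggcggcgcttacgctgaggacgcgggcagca
Mrps18b: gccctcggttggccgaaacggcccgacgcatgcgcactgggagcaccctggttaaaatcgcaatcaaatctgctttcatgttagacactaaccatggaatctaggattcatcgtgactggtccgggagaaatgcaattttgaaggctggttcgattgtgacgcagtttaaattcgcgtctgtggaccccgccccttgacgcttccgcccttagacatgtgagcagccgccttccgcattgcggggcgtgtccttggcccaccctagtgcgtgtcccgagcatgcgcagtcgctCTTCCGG
Mrps18a: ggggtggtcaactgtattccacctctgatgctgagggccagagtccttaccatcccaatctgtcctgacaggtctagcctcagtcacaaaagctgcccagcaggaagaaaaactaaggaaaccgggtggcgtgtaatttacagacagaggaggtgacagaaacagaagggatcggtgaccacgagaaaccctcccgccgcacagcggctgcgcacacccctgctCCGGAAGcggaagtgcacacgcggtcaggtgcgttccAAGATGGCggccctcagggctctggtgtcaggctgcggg

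Motifs of regulators of mitochondrial genes were searched on both strands, with any promoter of a symbol counted. They were the NRF1 motif (GCGCA and GCGC with any 1 base between them), the ETS motif that GABP reads (CCGGAAG), the YY1 motif (AAGATGGC) and, for comparison, the TATA box (TATAAA). The ETS motif stood in the promoters of 26 of 68 members (38.2%), against 9.93% of the 27025 symbols with a promoter in the table and 20% of the 9525 tested genes with one. The NRF1 motif stood in 13 members (19.1%), against 5.19% and 11.4%, and the YY1 motif in 12 (17.6%), against 3.19% and 5.28%. TATAAA stood in 5 members (7.35%), against 15.7% and 9.32%. Of the 4 promoters shown, Mrpl27, Mrps18b and Mrps18a held an ETS match, Mrps18a also held a YY1 match, and Mrpl47 held none of the 4 motifs. No overlap between matches of different motifs occurred in the 4 promoters shown. A match describes letters only.

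Levels were compared between genes per kb of the principal transcript, so that ranks and medians depend on the transcript chosen. That transcript has 418 bases for Mrpl52, whose exons cover 1109, and 6073 for Mrps25, whose exons cover 6576. The highest level was that of Mrpl12, with a mean over all libraries of 558 normalized counts per kb. Mrpl12 encodes bL12m, a stalk protein that is present in several copies per ribosome. Next came Mrpl52 at 475 and Mrpl14 (uL14m) at 398, also of the large subunit, and the highest gene of the small subunit was Mrps24 (uS3m) at 313. The median was 129 per kb for the large subunit (quartiles 76.3 and 233) and 109 for the small subunit (54.6 and 159). At the low end, Mrps25 had 7.77 and Mrps36 had 15.2 per kb. For Mrps25, 69.8% of the exon bases lie under exons of the opposite strand, and its level is uncertain where reads were counted without strand. Mrps36 is also known as a component of the oxoglutarate dehydrogenase complex.

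The question of the first comparison was whether Dox changed the RNA of the mitochondrial ribosome. Mrps31 and Mrpl47 lay above Control at an adjusted p under 0.05 in limma on all 9 libraries, with fitted log2 fold changes of 0.86 and 0.92. The other 75 of 77 members did not pass this test, which 8.41% of all genes passed. Both calls were lost under several alternatives given below. The medians of the log2 fold changes were 0.10 for the large subunit and 0.03 for the small subunit, and 0.00 for all genes tested. Values were above 0 for 28 of 48 large subunit genes (58.3%) and 15 of 29 small subunit genes (51.7%), against 50% of all genes.

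**Figure D1:**
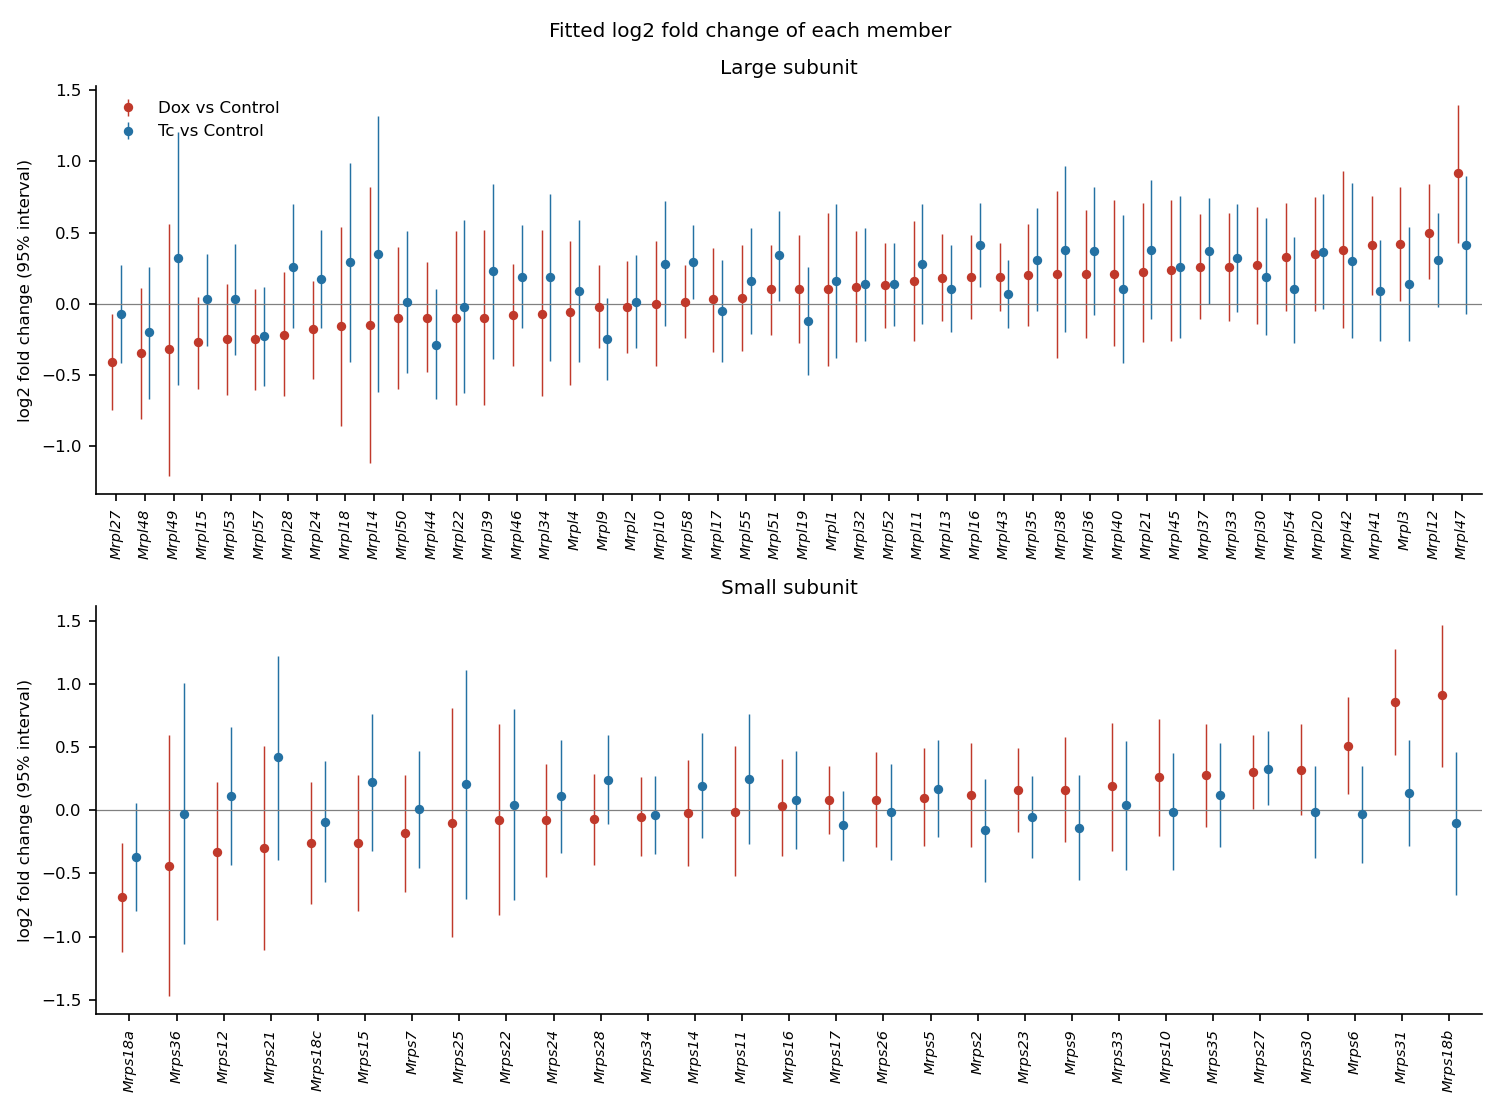
Fitted log2 fold changes of all 77 members, Dox against Control in red and Tc against Control in blue, with 95% confidence intervals from limma on all 9 libraries (vertical axis, log2 scale). Genes run from the lowest to the highest Dox value in each subunit. Mrpl47, Mrps31 and Mrps18b stand highest with Dox at 0.92, 0.86 and 0.91, and Mrps18a stands lowest at -0.69, while the Tc values stay between -0.37 and 0.42.

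Mrps31 encodes mS31, a small subunit protein without a bacterial counterpart. Its normalized counts were 207.5, 179.6 and 156.4 in Control, 274.8, 415.3 and 306.2 with Dox, and 222.6, 185.2 and 188.7 with Tc. Every Dox library was above all other libraries, and Tc lay within or just above the Control range. The means were 181 ± 25.6, 332 ± 73.7 and 199 ± 20.7 (SD, n = 3 libraries each). Mrps31 (chromosome 8, 22411361 to 22429665, plus strand, GRCm38) rose with Dox by 0.86 ± 0.19 (SE, log2; limma, Benjamini-Hochberg adjusted p = 0.0297). Without the third libraries the value was 0.80 and the adjusted p from limma was 0.572.

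Mrpl47 encodes uL29m, which sits at the exit of the peptide tunnel. It had 76.2, 62.8 and 69.9 normalized counts in Control, 119.0, 161.0 and 119.7 with Dox, and 121.1, 75.5 and 87.6 with Tc. All Dox libraries exceeded all Control libraries, and Tc library 1 reached the Dox range. Mrpl47 (chromosome 3, 32725397 to 32737605, minus strand) rose with Dox by 0.92 ± 0.21 (SE, log2; limma, adjusted p = 0.036), which became 0.99 with an adjusted p of 0.566 from limma without the third libraries. Exons of Actl6a and Ndufb5 on the other strand cover 24.2% of its exon bases, 20.8% of its 86-base words occur in another gene, and the strand setting of the authors' counting was not given in the sources used here.

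Neither gene passed the fold change above 2 that the study asked for, and 0 of 77 members did so with an adjusted p under 0.05 in limma, where 5% of all genes tested did. At an adjusted p under 0.05 alone the members gave 2 of 77, against 8.41% of all genes. With the replicate number as a block 0 members passed in limma, where 776 of 12100 genes did, with adjusted p-values of 0.0511 for Mrps31 and 0.061 for Mrpl47. Both calls were also lost in limma when any 1 Control library, Dox library 3 or Tc library 3 was left out, fits in which 34 to 422 of the 12100 genes passed. Without the third libraries limma called 0 of the 12100 genes in every comparison, so that no gene of any kind kept its call there, although 1040 had an unadjusted p under 0.05 for Dox against Control and DESeq2 called 146. DESeq2 on whole reads called 5 members (17.8% of all genes), adding Mrps18b, Mrps18a and Mrpl12, and edgeR called 3 (9.07%), adding Mrps18b. Unadjusted p-values from limma were under 0.05 for 8 members above Control (13.6% of all genes) and 2 below it (15.4%). The share of members past each threshold was thus below that of all genes. Intervals of 95% lay wholly within a 2-fold change for 68 of 77 members (88.3%), against 53.7% of all genes. Without the third libraries this held for 40 members (51.9%), against 26.7%.

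The groups did not overlap for 14 members higher with Dox than in Control (16.1% of all genes) and 4 lower (17.1%). Among those higher were Mrps18b and Mrps6, both described next, Mrps30, Mrps27, Mrpl41 and Mrpl3. The 4 lower ones were Mrps18a, Mrpl27, Mrpl15 and Mrpl57.

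Mrps18b and Mrps18a are paralogs with different places in the ribosome. The Mrps18b protein (mS40) belongs to the small subunit, and the Mrps18a protein (mL66), despite its symbol, to the large subunit. Mrps18b had 133.4, 100 and 131.0 normalized counts in Control, 167.4, 326.7 and 212.0 with Dox, and 129.9, 105.2 and 102.8 with Tc. Dox library 2 was the highest by far, and the other Dox libraries were also above every Control and Tc library. The difference of Dox from Control was 0.91 ± 0.25 (SE, log2; limma, adjusted p = 0.0578) and that of Dox from Tc was 1.01 ± 0.25 (adjusted p = 0.111). The antisense gene Gm16279 covers 30.5% of the exon bases of Mrps18b (chromosome 17, 35910379 to 35916389, minus strand).

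Mrps18a moved the other way in its values. It had 317.6, 239.8 and 270.8 normalized counts in Control, 190.6, 136.9 and 187.4 with Dox, and 217.8, 246.4 and 177.7 with Tc. All Dox libraries were below all Control libraries, and the Tc libraries overlapped both. The difference was -0.69 ± 0.19 (SE, log2; limma, adjusted p = 0.0591) for Dox and -0.37 ± 0.19 (adjusted p = 0.514) for Tc. Mrps18a lies on the same chromosome (46110986 to 46128910, plus strand) and shares no exon base with another gene. The remaining paralog, Mrps18c (bS18m), had 132 ± 23.3 in Control, 112 ± 27.3 with Dox and 124 ± 9.3 with Tc (SD, n = 3), so its groups overlapped.

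Mrpl12 also binds the mitochondrial RNA polymerase. It had 710.3, 506.0 and 598.8 normalized counts in Control, 825.5, 914.5 and 815.6 with Dox, and 794.9, 687.9 and 753.8 with Tc. Dox lay above Control and Tc in every library, and Tc overlapped Control. The difference of Dox from Control was 0.50 ± 0.15 (SE, log2; limma, adjusted p = 0.0644). Mrps6 (bS6m) had 45.5, 54.0 and 43.2 in Control, 72.7, 61.0 and 71.3 with Dox, and 48.8, 42.3 and 48.0 with Tc, with an adjusted p of 0.0912 in limma. Of its exon bases, 19.9% are shared with genes on the same strand, among them Slc5a3.

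**Figure D2:**
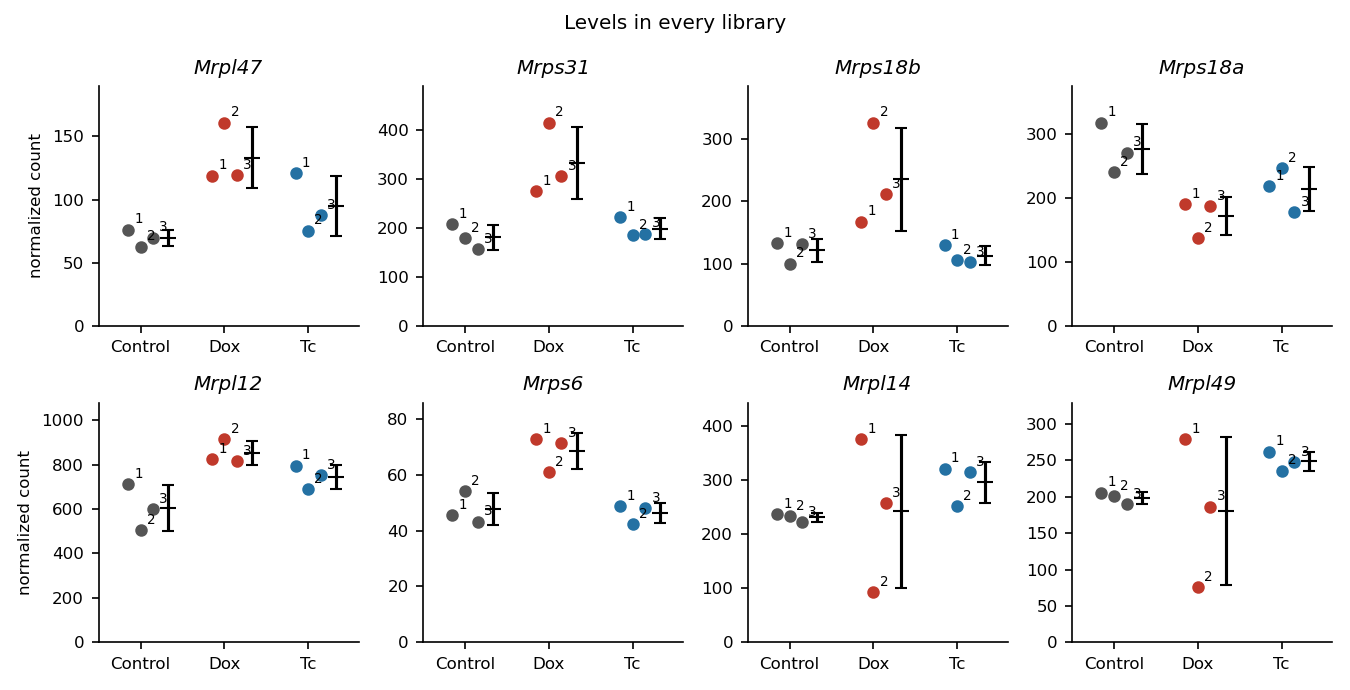
Normalized counts (vertical axes, starting at 0) of 8 members in every library, numbered by replicate, with the group mean and SD beside the points. Mrps31 in Dox runs from 274.8 to 415.3 and stands apart from Control and Tc, and Mrpl49 in Dox runs from 75.9 to 279.0 on both sides of Control.

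The other values with an unadjusted p under 0.05 in limma were smaller. Mrpl27 (bL27m) lay at -0.41 (log2), and Mrpl41 (mL41), Mrpl3 (uL3m) and Mrps27 (mS27) at 0.41, 0.42 and 0.30, with adjusted p-values from 0.118 to 0.163. Mrps30, whose protein mL65 belongs to the large subunit, did not reach that p, and lay at 0.32 with an adjusted p of 0.214 in limma. Its Dox libraries ran from 206.7 to 218.6 normalized counts, against 134.5 to 194.8 in Control and 166.4 to 173.5 with Tc.

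Within the Dox group, library 2 held the widest spread. Its members differed from the Control mean with an SD of 0.57 (log2), against 0.13 to 0.27 in the other 8 libraries. Over all genes tested the SD in Dox library 2 was 1.25. Of 77 members, 34 had their lowest value of all 9 libraries there (44.2%, against 32.1% of all genes tested) and 15 their highest (19.5%, against 33.4%). Below the Control mean by more than 2-fold were 5 members (6.49%, against 17.5% of all genes tested). These were Mrpl49 (mL49), Mrpl14 (uL14m), Mrps21 (bS21m), Mrps36 and Mrps25, at differences of -1.37, -1.30, -1.21, -1.14 and -1.13 (log2). Above the Control mean by more than 2-fold were 3 members (3.9%, against 12% of all genes tested), Mrps18b, Mrpl47 and Mrps31, at 1.43, 1.20 and 1.20. The cytosolic ribosomal protein genes were highest of all 9 libraries in Dox library 2 for 76 of 81 genes. Without this library the medians of Dox against Control were 0.20 for the large subunit and 0.13 for the small subunit, against 0.03 for all genes. Values were then above 0 for 58 of 77 members (75.3%), against 52.7% of all genes. In that fit limma called 4 members, where 2218 of the 12100 genes were called.

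Mrpl14 shows how wide the Dox group ran. It had 237.1, 233.6 and 222.5 normalized counts in Control, 375.9, 93.2 and 257.8 with Dox, and 321.3, 251.8 and 315.0 with Tc. Its Dox library 1 was the highest of all and Dox library 2 the lowest. The difference of Dox from Control was -0.15 with a 95% interval from -1.12 to 0.82. Mrpl49 had a like pattern, with 279.0, 75.9 and 186.5 in the Dox libraries against 189.4 to 205.4 in Control.

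**Figure D3:**
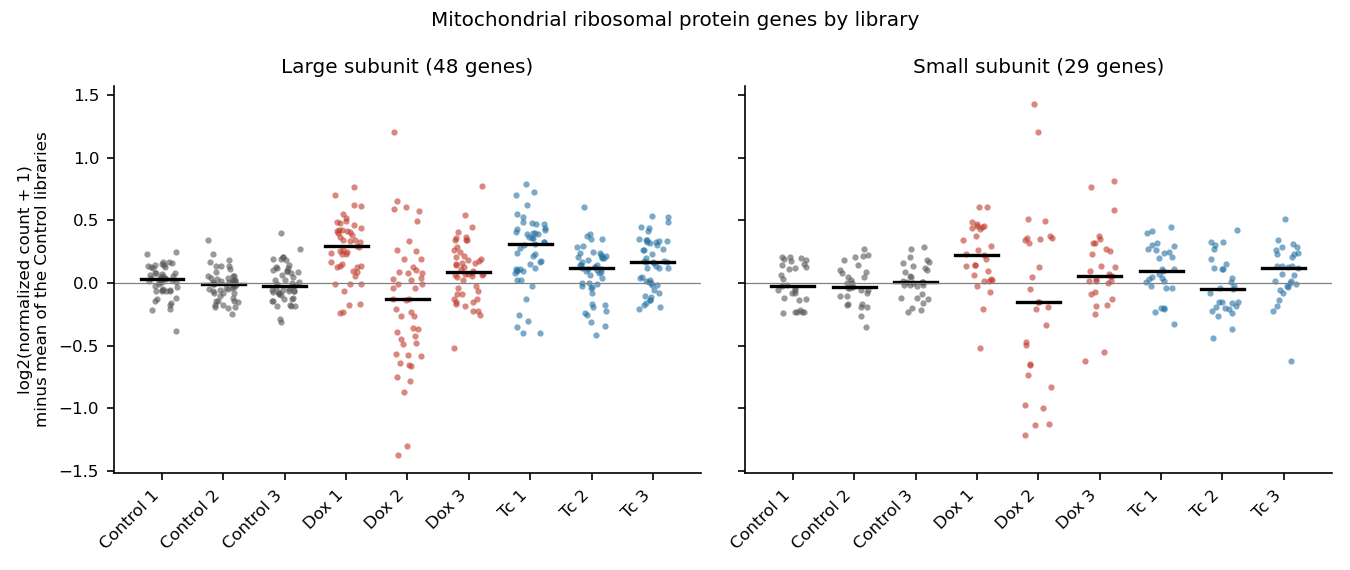
Difference of every member from the mean of the Control libraries (vertical axis, log2 of the normalized count + 1) in each library, with large subunit genes at left, small subunit genes at right and a black bar at the median. Dox library 2 has the widest spread and medians of -0.13 and -0.16, while Dox library 1 has medians of 0.29 and 0.22.

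The second comparison asked the same of Tc. Values of both subunits lay above Control for more genes than below it, more so in the large subunit, and no member passed the test. The difference between the subunits was not tested. The median was 0.18 (log2) for the large subunit and 0.04 for the small subunit, against 0.00 for all genes tested. Values were above 0 for 40 of 48 large subunit genes (83.3%) and 16 of 29 small subunit genes (55.2%), against 50.5% of all genes. The highest values were 0.41 to 0.42, and the lowest was -0.37 for Mrps18a.

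With limma, 0 of 77 members passed an adjusted p under 0.05, with or without a fold change above 2, where 0.182% and 0.165% of all genes did. DESeq2 and edgeR also called 0 members (2.83% and 0.198% of all genes). Unadjusted p-values from limma were under 0.05 for 5 members above Control (5.27% of all genes) and 0 below it (6.4%). The groups did not overlap for 15 members higher with Tc (15.8%) and 3 lower (14.9%). Intervals of 95% lay within a 2-fold change for 72 of 77 members (93.5%), against 64.7% of all genes. Without the third libraries this held for 48 members (62.3%), against 34.3%.

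Of those 5, 4 belonged to the large subunit. Mrpl16 encodes uL16m, a protein near the peptidyl transferase centre, and had 160.9, 165.4 and 155.1 normalized counts in Control, 192.7, 170.2 and 185.6 with Dox, and 201.2, 244.6 and 197.9 with Tc. Control, Dox and Tc did not overlap and stood in that order. The difference of Tc from Control was 0.41 ± 0.13 (SE, log2; limma, adjusted p = 0.298). Mrpl58 (mL62) is a peptidyl-tRNA hydrolase that became part of the ribosome. It had 183.1, 203.5 and 186.9 in Control, 199.0, 196.7 and 183.0 with Dox, and 236.3, 223.0 and 242.6 with Tc. Only its Tc libraries stood apart, at 0.29 ± 0.11 above Control (SE, log2; limma, adjusted p = 0.385). Mrpl51, Mrpl37 and, in the small subunit, Mrps27 lay at 0.34, 0.37 and 0.33, with adjusted p-values from 0.388 to 0.426 in limma.

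Within a library, the mean log2 level of the large subunit minus that of the small subunit does not depend on the scaling between libraries. This difference was 0.45, 0.43 and 0.41 in Control, 0.48, 0.43 and 0.43 with Dox, and 0.57, 0.53 and 0.50 with Tc. Tc lay above the other groups in every library, and Dox overlapped Control. Summed reads gave a ratio of large to small subunit of 2.06, 2.09 and 2.01 in Control, 2.18, 1.89 and 2.07 with Dox, and 2.29, 2.25 and 2.23 with Tc. No test was made of these sums over members.

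The size of the shift depended on how the genes were assigned. With Mrps30 and Mrps18a moved to the large subunit and Mrps36 left out (50 and 26 genes), the difference was 0.34 to 0.39 in Control, 0.30 to 0.39 with Dox and 0.39 to 0.47 with Tc, so that Tc and Control met at 0.39. With medians in place of means the groups overlapped, at 0.19 to 0.42, 0.08 to 0.31 and 0.17 to 0.41. For the 48 members with under 5% of exon bases or 86-base words shared with another gene, it was 0.08 to 0.15 in Control, 0.16 to 0.26 with Dox and 0.18 to 0.31 with Tc.

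**Figure D4:**
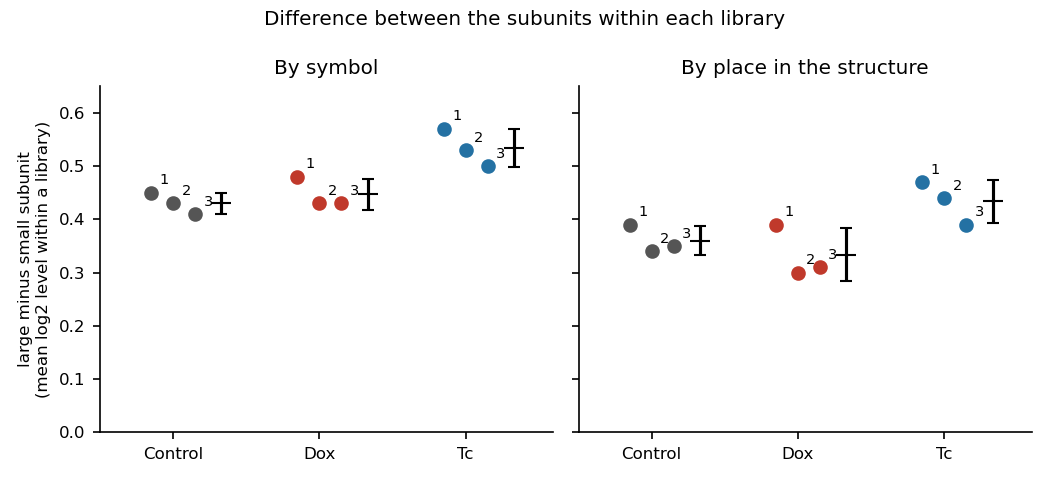
Mean log2 level of the large subunit minus that of the small subunit within each library (vertical axis, log2), by symbol at left and by place in the ribosome at right, with points numbered by replicate and the group mean and SD beside them. By symbol the Tc libraries sit at 0.50 to 0.57, above Control at 0.41 to 0.45 and Dox at 0.43 to 0.48, and by structure Tc reaches down to the top of Control.

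By descent, 45 members were kept from bacteria and 32 are particular to mitochondria. With Dox the medians were 0.03 and 0.11 (log2), and with Tc they were 0.16 and 0.09. In the large subunit the values with Tc were above 0 for 24 of 29 genes kept from bacteria and 16 of 19 particular to mitochondria, and in the small subunit for 10 of 16 and 6 of 13.

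The third comparison set the drugs against each other at the same dose and time. The members' values were mostly lower with Dox than with Tc, with a median of -0.11 (log2) for the large subunit and -0.05 for the small subunit, against -0.02 for all genes. The sign of the values turned with the setting: 26 of 77 members were above 0, but 48 without Dox library 2 and 50 with the same total per library. Of all genes, 48.7% were above 0 with all libraries and 51.3% without Dox library 2. Medians over the members were -0.08, 0.06 and 0.09, and those of all genes -0.02, 0.01 and 0.16, in that order. With the same total the members thus still lay below all genes. With limma, 0 of 77 members passed an adjusted p under 0.05, with or without a fold change above 2 (0.231% and 0.215% of all genes). DESeq2 called Mrps18b and Mrps31 (8.63% of all genes), both higher with Dox, and edgeR called 0 members (0% of all genes). Unadjusted p-values from limma were under 0.05 for 4 members higher with Dox (10.6%) and 3 lower (11.1%), and the groups did not overlap for 8 higher (12.2%) and 7 lower (12.4%).

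Those 4 were Mrps18b, Mrps31, Mrps6 and Mrpl47, and the 3 were Mrpl28, Mrpl24 and Mrpl58. Mrps31 differed by 0.72 with a 95% interval from 0.30 to 1.14, and Mrps6 by 0.55 with an interval from 0.16 to 0.93. For Mrpl58 the difference was -0.28, with an interval from -0.53 to -0.02. Intervals within a 2-fold change were found for 68 of 77 members (88.3%), against 56.1% of all genes. Without the third libraries this held for 44 of 77 (57.1%), against 29.2%. Dox is a tetracycline that lacks a hydroxyl group of Tc and carries another at a neighbouring position.

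Genes that serve the mitochondrial ribosome were read from lists. Of 5 further subunits without an Mrp symbol, 0 passed in limma in any comparison, with medians of 0.10 (log2) for Dox and 0.24 for Tc and 1 unadjusted p under 0.05 for Dox against Control (Ptcd3, 0.28). Of 31 genes of assembly and rRNA modification, 1 rose with Dox and 0 fell, where 382 of all 12100 genes rose and 636 fell. This was C1qbp, which encodes a chaperone-like protein of the matrix, with 486.9, 483.0 and 446.3 normalized counts in Control, 672.9, 989.3 and 735.5 with Dox and 642.5, 452.3 and 554.2 with Tc. Its change with Dox was 0.74 ± 0.18 (SE, log2; limma, adjusted p = 0.0424).

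Among 16 factors of mitochondrial translation and transcription, Oxa1l rose and Tfam fell with Dox, where 382 of all 12100 genes rose and 636 fell. Oxa1l inserts newly made proteins into the inner membrane beside the ribosome, and had 274.2, 189.3 and 297.5 in Control, 466.5, 449.8 and 461.0 with Dox, and 451.1, 304.8 and 325.1 with Tc. It rose by 0.88 ± 0.21 (SE, log2; limma, adjusted p = 0.0365). Tfam packages the mitochondrial genome and takes part in its transcription. It had 743.1, 583.9 and 723.4 in Control, 463.3, 439.4 and 419.7 with Dox, and 409.2, 527.9 and 426.2 with Tc. Both drug groups lay below Control in every library, at -0.62 ± 0.15 with Dox (SE, log2; limma, adjusted p = 0.0369) and -0.59 ± 0.15 with Tc (adjusted p = 0.185).

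Of 12 nuclear regulators of mitochondrial genes, Ppargc1b and Pprc1 rose with Dox and 0 fell, where 382 of all 12100 genes rose and 636 fell. Ppargc1b and Pprc1 are coactivators of the PGC-1 family. Ppargc1b had 166.2, 127.4 and 156.4 in Control, 280.1, 639.6 and 409.1 with Dox, and 250, 152.9 and 253.5 with Tc, and rose by 1.48 ± 0.31 (SE, log2; limma, adjusted p = 0.0272). Pprc1 had 206.4, 186.7 and 197.1 in Control, 298.0, 691.3 and 437.3 with Dox, and 293.9, 170.9 and 262.8 with Tc, and rose by 1.19 ± 0.31 (adjusted p = 0.0492). Both were highest in Dox library 2. The RNAs of the factors whose motifs were searched lay at 0.51 for Nrf1, 0.27 for Gabpa and 0.00 for Yy1 with Dox, with adjusted p-values from 0.227 to 0.99 in limma. Without the third libraries, where limma called no gene at all, the adjusted p-values of the 5 called genes of these lists were 0.559 to 0.578. For Tc against Control and Dox against Tc none of the 5 passed in limma. DESeq2 called Tfam for Tc against Control (adjusted p = 0.0212), and Ppargc1b and Pprc1 for Dox against Tc (0.0399 and 0.0471). In these comparisons it called 2.83% and 8.63% of all genes.

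Other ribosomal and respiratory genes are set beside the members as values only. The 81 cytosolic ribosomal protein genes had a median of 0.30 (log2) with Dox, with 73 above 0, and of -0.06 with Tc, with 28 above 0. Without Dox library 2 their median with Dox was 0.06. Of all genes tested, 50% were above 0 with Dox and 50.5% with Tc, from all libraries. The 36 nuclear genes of respiratory complex I had medians of 0.19 with Dox and 0.20 with Tc, with 33 above 0 for Tc. The 7 protein genes of the mitochondrial genome that passed the mean filter, whose RNA this ribosome translates, had medians of 0.92 with Dox and 0.55 with Tc. By library, their median difference from the Control mean was 0.92, 0.96 and 0.87 with Dox. It was 0.67, 0.72 and 0.01 with Tc and 0.12, -0.36 and 0.26 in Control, so Tc library 3 did not share the rise. In none of these 3 lists did a gene pass an adjusted p under 0.05 in limma with all libraries, in any comparison. DESeq2 called 6 mitochondrial genome genes, 2 complex I genes and 1 cytosolic gene higher with Dox than in Control. It called 17.8% of all genes there, in either direction. Limma called 4, 3 and 1 genes of these lists, in that order, with the same total per library, and 2, 4 and 1 without Dox library 2. Those fits called 1053 and 2218 of all 12100 genes. For Tc against Control DESeq2 called 1 complex I gene (2.83% of all genes). Limma without Dox library 2 also called 1, where 481 of all 12100 genes were called. For Dox against Tc DESeq2 called 1 complex I and 1 cytosolic gene (8.63% of all genes). At an unadjusted p under 0.05 with Dox, 10 cytosolic, 5 complex I and 6 mitochondrial genome genes were above Control and 0 below it, where 1651 of all 12100 genes were above and 1865 below.

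**Figure D5:**
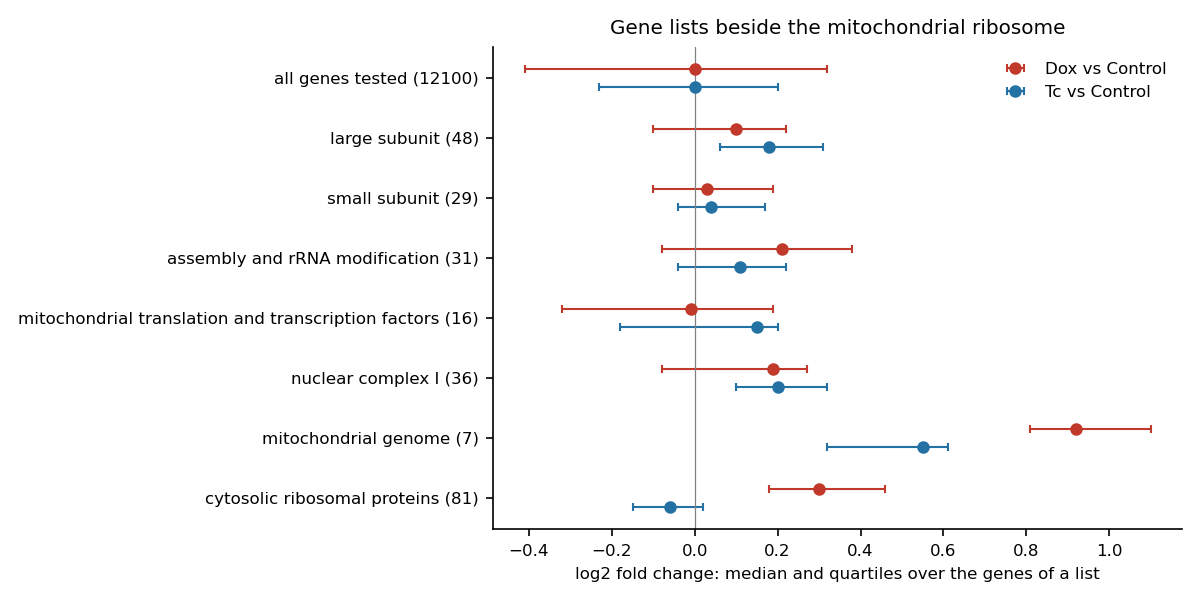
Median and quartiles of the log2 fold changes over the genes of each list (horizontal axis, log2), Dox against Control in red and Tc against Control in blue, with the number of genes in brackets. The large subunit sits at 0.10 with Dox and 0.18 with Tc, and the cytosolic ribosomal proteins at 0.30 and -0.06.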

How the data were processed

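The series holds 9 liver RNA libraries, put into 3 groups of 3 by their labels. The authors trimmed single-end 86-base reads with cutadapt, aligned them to mm10 with STAR 2.7.11ac, and counted uniquely mapped reads per gene with HTSeq 2.0.5 on GENCODE vM23. The values they deposited are normalized counts (a signal), obtained through division by DESeq2 1.42.0 size factors. Symbols, coordinates and transcript lengths were taken from GENCODE vM21 (GRCm38).

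Log2(normalized count + 1) was tested in a single limma 3.58.1 trend model of the 9 libraries (R 4.3.3). P-values were adjusted by Benjamini-Hochberg across the 12100 genes whose mean reached 10. Fold changes on this scale understate those of low genes. Whole reads were recovered for 100% of values (tolerance 0.01) and tested with DESeq2 and edgeR 4.0.16 as alternatives. Scripts were tested on simulated data. The study calls the libraries of a group independent samples. Library 3 mostly lay between libraries 1 and 2 for genes that differed by more than 2-fold between them. Limma and DESeq2 were therefore also run without library 3, but edgeR and the counts of non-overlapping groups were not.

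Deviations from the group means correlated between Dox and Tc libraries of the same number (r = 0.29, 0.32 and 0.18), unlike pairs that include Control (-0.08 to 0.06). The pairing comes from the replicate numbers in the labels, and the 3 correlations are not independent. Members and lists were chosen with earlier results of these data known. Members named were the 4 highest and 4 lowest of each subunit per comparison, those called, those of extreme mean level, and those with a particular place or role. Mrpl37, Mrpl51 and Mrpl52 fall outside that rule and were named after their values were seen. Cytosolic ribosomal proteins exclude kinases of similar symbol, a change made after the list was written. Alternatives covered pseudocount, filter, scaling, test, groups fitted, block and libraries left out.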

Additional observations from a re-analysis of the deposited data

How the results depend on the processing

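The number of members called for Dox against Control was 2 in limma with all libraries, where 1018 of all 12100 genes were called. It was 4 with the same total per library and 5 with DESeq2, fits that called 1053 and 2151 genes. Among members without shared exons or reads (chosen after seeing the data) it was 1. It was 0 with only the compared groups fitted, with the replicate block, and without the third libraries in limma or DESeq2. These fits called 407, 776, 0 and 146 of all 12100 genes. When each library was left out it ran from 0 to 5, in fits that called 34 to 2852 genes. With a fold above 2 as well, the number of members was 3 with the same total and ran from 0 to 1 without each library. In those fits 571 and 33 to 1500 of all genes passed both limits. Mrps31 and Mrpl47 were each called under 12 of 21 alternatives, with adjusted p from 0.00189 to 0.572 and from 0.00564 to 0.566, and each lost its call without any 1 Control library, Dox library 3 or Tc library 3. Dox and Tc share replicate numbers that deviate together, and the block changed no call for Tc against Control or Dox against Tc, at 0 members for both.

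Giving each library the same total moved the median log2 fold change of all genes to 0.17 for Dox against Control and to 0.16 for Dox against Tc, with subunit medians of 0.27 (large) and 0.20 (small), and of 0.06 and 0.12. For Dox against Tc, DESeq2 called 2 members, 1 with a fold above 2, and leaving out each library gave 0 to 6 and 0 to 3, the highest without Dox library 1, where 2526 of all 12100 genes were called. Subunit medians without each library ran from 0.00 to 0.20 (large) and -0.09 to 0.13 (small) for Dox against Control, 0.14 to 0.22 and -0.03 to 0.12 for Tc, and -0.22 to 0.03 and -0.17 to 0.07 for Dox against Tc. The large minus small difference of medians was 0.07 for Dox against Control, 0.04 with a mean of at least 50, with DESeq2 or by structure, 0.03 with edgeR, 0.00 without the third libraries in limma or DESeq2, and -0.05 to 0.09 without each library. For Tc it was 0.14, and 0.18 with DESeq2 without the third libraries, 0.11 by structure and 0.10 to 0.24 without each library, and for Dox against Tc -0.06, -0.11 without shared exons or reads and -0.07 to 0.01 without each library. Mrpl14 for Dox against Tc was -0.50, and ran from -0.92 to 0.08 without each library, above 0 only without Dox library 2. The cause of these moves was not tested.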
